A study of Mus musculus with 45 samples.

Results

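The comparison is of hippocampus samples that hold much choroid plexus RNA with samples that hold little. The mice were chosen by their measured value of Ttr, by which all 45 mice of the study were ranked. Ttr encodes transthyretin, the thyroxine and retinol carrier of the cerebrospinal fluid. The 15 mice with the highest values are called rich, the 15 with the lowest poor and the 15 between them middle, so 30 of 45 mice were compared. These are not groups of the study. The values of Ttr are given as a description without a test.

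The samples were hippocampal RNA of female C57Bl/6J mice. Wild-type mice (AwTw) numbered 12, mice with APPswe/PS1dE9 under the mouse PrP promoter (A+Tw) 11, mice with human Tau P301L under the CaMKII promoter (AwT+) 12, and mice with both transgenes (A+T+) 10. From 7 to 13 months of age they ate either a standard diet (STD, 5% fat and 0% cholesterol) or a typical western diet (TWD, 21% fat and 0.15% cholesterol). The mice were perfused with saline before the hippocampus was dissected, and every sample is a separate animal. The deposited values are on a log2-like scale after a variance-stabilizing transformation, which shrinks differences between low values, and the depth of each library is unknown from them. The median value over all genes lay between 8.05 and 8.31 in the 45 mice.

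The choroid plexus is a folded sheet of epithelium that hangs into the brain ventricles and secretes the cerebrospinal fluid. Its cells carry water channels, ion transporters and tight junctions, and they secrete carrier proteins, Ttr first among them. In the lateral ventricle it is attached along the fimbria, so it lies against the hippocampus and can be taken with it at dissection. A list of 42 genes with roles in this epithelium was used to describe the label. It was chosen with earlier results of these data known, so it is not an independent check. Of these, 41 were in the table of 15897 genes (Slc28a3 was not), and 40 besides Ttr were tested.

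Ttr spanned 7.49 to 18.08 over the 45 mice. Its lowest, median and highest values were 16.13, 16.61 and 18.08 in the rich mice, and 7.49, 10.01 and 11.09 in the poor mice. The mean was 16.77 ± 0.536 in rich and 9.79 ± 1.13 in poor mice (SD, n = 15 each), a difference of 6.98. The 2 borders differed in kind. The lowest rich mouse stood at 16.134 and the next mouse outside at 16.130, whereas the highest poor mouse stood at 11.09 and the next mouse outside at 12.28. The widest gap between neighbours lay elsewhere, from 12.55 to 14.42, with 28 mice above it and 17 below.

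**Figure D1:**
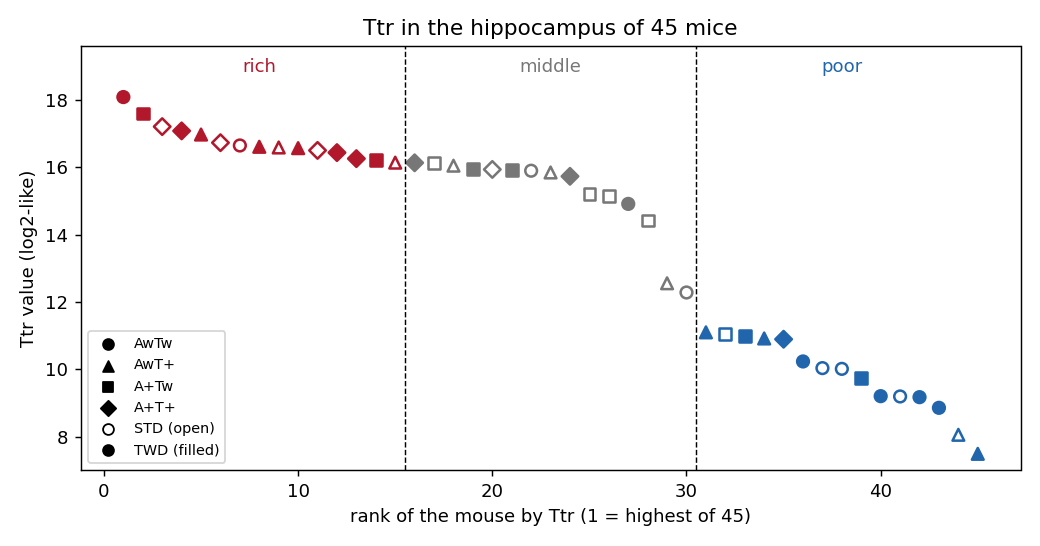
Ttr value of each mouse (vertical axis, log2-like) by its rank (horizontal axis). Shapes are genotypes, open points STD and filled points TWD, and the dashed lines separate the rich, middle and poor mice. The curve is flat at the border of rich and middle mice (16.134 and 16.130) and drops from 14.42 to 12.55 within the middle mice.

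Rich and poor mice were not evenly drawn from the genotypes. Among the rich mice 8 of 15 carried A+ and 11 of 15 carried T+, and among the poor mice 4 and 5 did. AwTw mice made up 2 of the rich and 7 of the poor mice, and A+T+ mice made up 6 of the rich and 1 of the poor. TWD was the diet of 9 rich and 10 poor mice. Batch 0 of the labels held 6 rich and 7 poor mice. A genotype, tau genotype, diet and batch were therefore covariates in every fit unless stated otherwise.

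Each group of the study but A+T+/STD held at least 1 poor mouse, and each but A+Tw/STD at least 1 rich mouse. In A+T+/STD the 4 mice lay between 15.93 and 17.20 with a median of 16.61. In AwTw/TWD the 6 mice ranged from 8.85 to 18.08 with a median of 9.72, and in AwTw/STD the 6 mice ranged from 9.19 to 16.64 with a median of 11.16. The other groups had medians between 13.83 and 16.19. The mean value of the 40 other genes of the list ran from 6.54 to 9.18 in AwTw/TWD and from 8.59 to 9.16 in A+T+/STD.

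Promoters of 5 genes that were higher in rich mice are shown, because Otx2, a homeobox factor of this epithelium, was itself among them. Its family binds TAATCC. The windows hold the 250 bases before the start in RefSeq (GRCm38.p6), read in the direction of the gene, and capitals mark TAATCC or its reverse complement GGATTA. Kcnj13 (chr1:87394730-87394979, minus strand) and Aqp1 (chr6:55336049-55336298, plus strand) are a potassium channel and a water channel of the epithelium. Ace (chr11:105967698-105967947, plus strand), Otx2 (chr14:48665110-48665359, minus strand, 1 of its RefSeq starts) and Mfrp (chr9:44101520-44101769, plus strand) hold 1 match each.
Kcnj13: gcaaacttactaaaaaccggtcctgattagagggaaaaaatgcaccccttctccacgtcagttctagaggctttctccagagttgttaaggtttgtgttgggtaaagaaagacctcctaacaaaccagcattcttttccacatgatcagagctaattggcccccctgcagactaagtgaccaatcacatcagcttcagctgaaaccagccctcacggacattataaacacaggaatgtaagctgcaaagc
Aqp1: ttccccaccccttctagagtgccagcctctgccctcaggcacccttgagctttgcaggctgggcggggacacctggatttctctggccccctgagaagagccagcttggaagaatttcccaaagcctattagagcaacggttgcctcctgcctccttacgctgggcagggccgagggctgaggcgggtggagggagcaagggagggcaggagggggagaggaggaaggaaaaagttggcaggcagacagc
Ace: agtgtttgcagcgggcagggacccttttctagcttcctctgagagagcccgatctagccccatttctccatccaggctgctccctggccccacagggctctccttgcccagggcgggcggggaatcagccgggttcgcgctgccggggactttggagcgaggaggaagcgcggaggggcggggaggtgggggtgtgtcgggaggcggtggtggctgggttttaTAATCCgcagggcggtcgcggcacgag
Otx2: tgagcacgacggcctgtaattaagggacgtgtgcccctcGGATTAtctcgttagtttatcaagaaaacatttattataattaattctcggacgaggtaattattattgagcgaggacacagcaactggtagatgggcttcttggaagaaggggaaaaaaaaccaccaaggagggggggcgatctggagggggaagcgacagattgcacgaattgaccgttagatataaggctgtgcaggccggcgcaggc
Mfrp: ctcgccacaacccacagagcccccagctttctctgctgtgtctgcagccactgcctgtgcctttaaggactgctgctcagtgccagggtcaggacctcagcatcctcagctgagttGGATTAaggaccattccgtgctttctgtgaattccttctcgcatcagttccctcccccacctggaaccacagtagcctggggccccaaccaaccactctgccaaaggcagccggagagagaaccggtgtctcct

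The motif, searched on both strands, was in 6.25% of all 32851 windows of this length. It was in 2 of 51 windows of 34 genes of the choroid plexus list, those of Ace and Otx2. The match began 27 bases before the start in Ace, 211 in Otx2 and 134 in Mfrp. Ttr, Clic6, Folr1 and 1500015O10Rik had no window. A match is a string of letters and not a binding site.

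All 40 genes of the choroid plexus list were higher in the rich mice. Their differences ran from 0.53 to 3.64 with a median of 2.24, against a median of -0.02 over all 15896 genes tested. An adjusted p below 0.05 (limma, Benjamini-Hochberg over all genes) was the threshold, and 971 genes (6.11%) passed it as higher. In 34 of the 40 genes every rich mouse lay above every poor mouse, which held for 103 genes (0.648%) of all. In bulk tissue, fewer cells of a type and less RNA in each cell cannot be told apart.

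Genes of ion and water transport had the largest median of the 6 roles, 3.22 over 8 genes. Clic6, a chloride channel protein, had its lowest, median and highest values at 8.98, 9.80 and 10.66 in rich and at 5.45, 6.24 and 6.92 in poor mice (difference 3.43 ± 0.188 SE, limma adjusted p = 5.761e-14). Aqp1, the water channel of the apical membrane, stood at 7.71, 8.64 and 9.46 in rich and at 4.68, 5.23 and 6.10 in poor mice (3.38 ± 0.164, limma adjusted p = 1.172e-14). Neither gene had overlapping mice. Kcne2, a potassium channel subunit, differed by 3.31 ± 0.177, Kcnj13 by 3.24 ± 0.216 and the bicarbonate transporter Slc4a5 by 3.21 ± 0.198. The calcium-permeable channel Trpv4 differed by 2.41 ± 0.142 and the anion exchanger Slc4a2 by 1.54 ± 0.131. Car12, a carbonic anhydrase, had the smallest difference of this role. It stood at 9.31, 10.03 and 10.48 in rich and at 9.05, 9.28 and 9.53 in poor mice (0.62 ± 0.0981, limma adjusted p = 5.879e-05), and 13 of 15 rich mice lay above the highest poor mouse.

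The 7 carriers and secreted proteins besides Ttr had a median of 2.42. 1500015O10Rik, which encodes the secreted augurin, had the largest difference of the list, with 8.62, 9.50 and 10.31 in rich and 5.16, 5.96 and 6.33 in poor mice (3.64 ± 0.164, limma adjusted p = 3.688e-15). Its rich and poor mice were far apart. Enpp2, the autotaxin that makes lysophosphatidic acid, stood at 12.09, 14.08 and 14.89 in rich and at 10.27, 11.13 and 11.49 in poor mice (2.74 ± 0.215, limma adjusted p = 1.638e-10). Coagulation factor F5 differed by 2.75 ± 0.236, the BMP and Wnt antagonist Sostdc1 by 2.42 ± 0.178 and Wfdc2 by 2.28 ± 0.150. Igfbp2 and Igf2, which meningeal cells also express, differed by 2.23 ± 0.211 and 2.20 ± 0.274. In Igf2 the highest poor mouse (11.48) was just under the lowest rich mouse (11.57).

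The 6 solute transporters had a median of 1.36, the smallest of the 6 roles. Folr1, the folate receptor that carries folate into the cerebrospinal fluid, stood at 7.92, 8.81 and 9.50 in rich and at 5.21, 5.64 and 6.23 in poor mice (3.09 ± 0.164, limma adjusted p = 3.192e-14). The sulfate transporter Slc13a4 differed by 2.25 ± 0.322 and the glucose transporter Slc2a12 by 1.73 ± 0.143. The monoamine transporter Slc29a4 (1.00 ± 0.109) and the copper transporter Slc31a1 (0.97 ± 0.120) had smaller differences. Stra6, the receptor that takes up retinol from its binding protein, had the smallest of the whole list. It stood at 8.42, 8.80 and 9.54 in rich and at 7.69, 8.33 and 8.69 in poor mice (0.53 ± 0.120, limma adjusted p = 0.004608), and 10 of 15 rich mice lay above all poor mice.

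Receptors and enzymes had a median of 2.08 over 5 genes. The retinol dehydrogenase Rdh5 led them with 2.64 ± 0.162, followed by Ace, the angiotensin-converting enzyme (2.37 ± 0.166), Kl, the FGF co-receptor klotho (2.08 ± 0.199), and the metalloreductase Steap1 (2.03 ± 0.133). Prlr, the prolactin receptor, stood at 6.11, 7.74 and 9.33 in rich and at 4.72, 5.95 and 6.67 in poor mice (1.76 ± 0.259, limma adjusted p = 2.11e-05). Its groups overlapped, with 13 of 15 rich mice above all poor mice.

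Of the 3 transcription factors, Otx2 stood at 7.43, 8.15 and 8.56 in rich and at 4.66, 5.54 and 5.85 in poor mice (2.54 ± 0.133, limma adjusted p = 2.664e-14). Msx1 and Lmx1a, homeobox factors of the dorsal midline, differed by 1.67 ± 0.122 and 1.09 ± 0.0988. No mice of the 2 groups overlapped in any of the 3.

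The 11 junction and structural genes had a median of 1.95. Krt18, a keratin of simple epithelia, stood at 7.63, 8.00 and 8.91 in rich and at 5.13, 5.28 and 6.29 in poor mice (2.65 ± 0.133, limma adjusted p = 1.634e-14), and its partner keratin Krt8 differed by 1.95 ± 0.128. Cldn2, the claudin of leaky epithelia, differed by 2.60 ± 0.193, Cldn3 by 1.43 ± 0.146 and Cldn1 by 1.08 ± 0.192. The groups overlapped in Cldn1 and in Cab39l (0.75 ± 0.130), and 11 and 12 of 15 rich mice lay above the highest poor mouse. Tmem72 (2.52 ± 0.180), the collagen Col9a3 (2.32 ± 0.145), Calml4 (2.15 ± 0.119), the cell cycle inhibitor Cdkn1c (1.93 ± 0.146) and the collagen Col8a1 (1.90 ± 0.192) did not overlap.

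The order of the mice differed from gene to gene. The 15 rich mice of Ttr included a median of 10 of the 15 highest mice of another gene of the list, with a range of 8 to 13. The 15 poor mice included a median of 13.5 of its 15 lowest mice, with a range of 9 to 15.

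**Figure D2:**
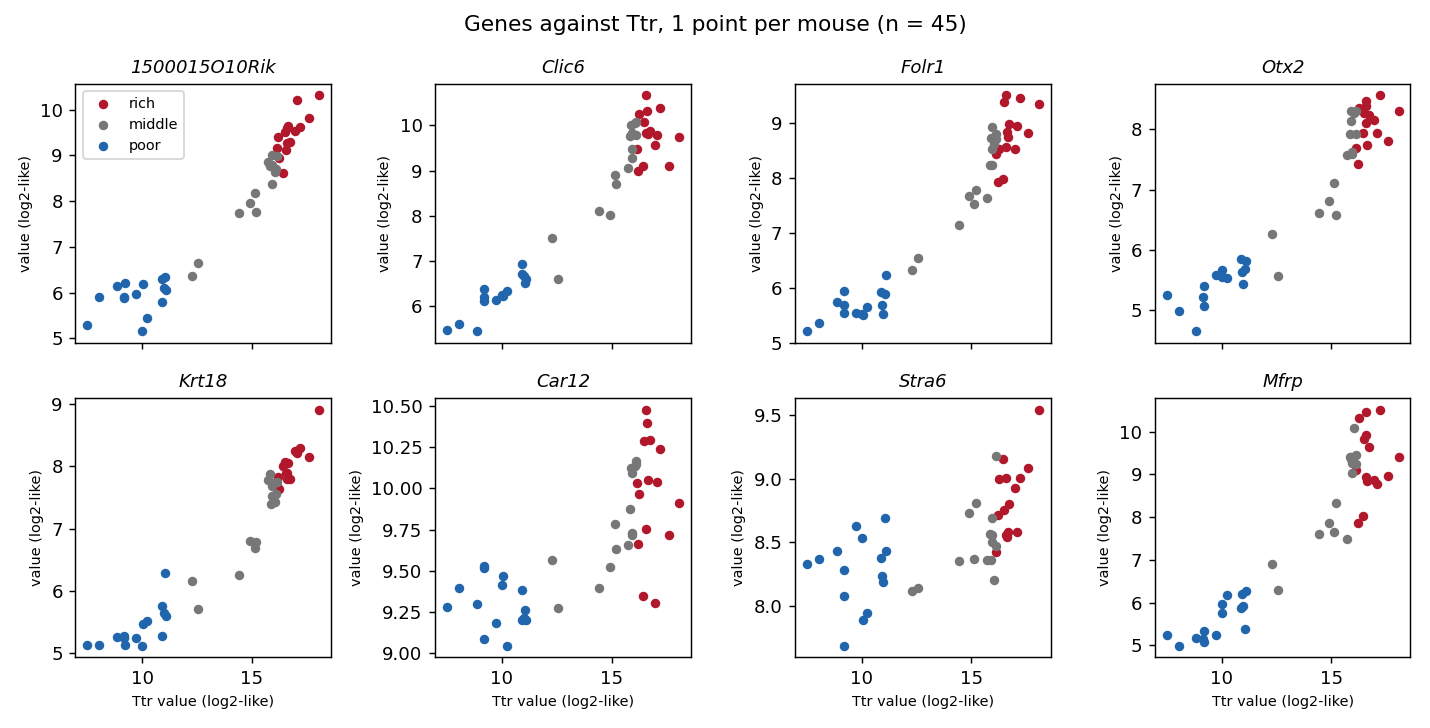
Value of 8 genes (vertical axes, log2-like) against Ttr (horizontal axis, log2-like), 1 point per mouse. In Clic6, Folr1, Otx2, Krt18, 1500015O10Rik and Mfrp every rich mouse lies above every poor mouse, whereas rich and poor mice overlap in Car12 and Stra6.

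The middle mice took no part in the comparison of rich with poor mice. In them the slope of each gene on Ttr was fitted with the same covariates. All 40 genes of the list had a positive slope, from 0.07 to 0.86 log2-like units per unit of Ttr with a median of 0.51, and 30 of the 40 passed the threshold (limma), as did 72 genes (0.453%) in all. The steepest was Clic6 (0.86, limma adjusted p = 0.001282), followed by F5 (0.80) and Aqp1 (0.76). The 10 that did not pass were Igf2, Slc4a2, Car12, Slc13a4, Stra6, Prlr, Lmx1a, Cldn1, Cab39l and Cdkn1c. Stra6 had the smallest slope, 0.07 with a limma adjusted p of 0.9999. The middle mice at the lowest Ttr, 12.28 (AwTw/STD) and 12.55 (AwT+/STD), lay below the widest gap. Both were of batch 1. Their means over the 40 genes, 7.21 and 7.01, were the lowest of the middle mice. No slope fit left them out, so how far the slopes rest on them was not tested.

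Among rich mice alone, 39 of the 40 slopes were positive with a median of 0.44, and Igfbp2 was the 1 gene of the table that passed (0.96 ± 0.124, limma adjusted p = 0.04557). Among poor mice alone, 28 slopes were positive and 12 negative with a median of 0.09, and 0 genes passed in limma. At an unadjusted p below 0.05, 20 genes of the list had a positive slope among the rich and 13 among the poor mice. With a negative slope there were 0 in either. Of all 15896 genes, 272 and 515 had a positive slope at that unadjusted p, and 183 and 339 a negative one. These slopes within the rich and within the poor mice were added after the data had been seen.

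**Figure D3:**
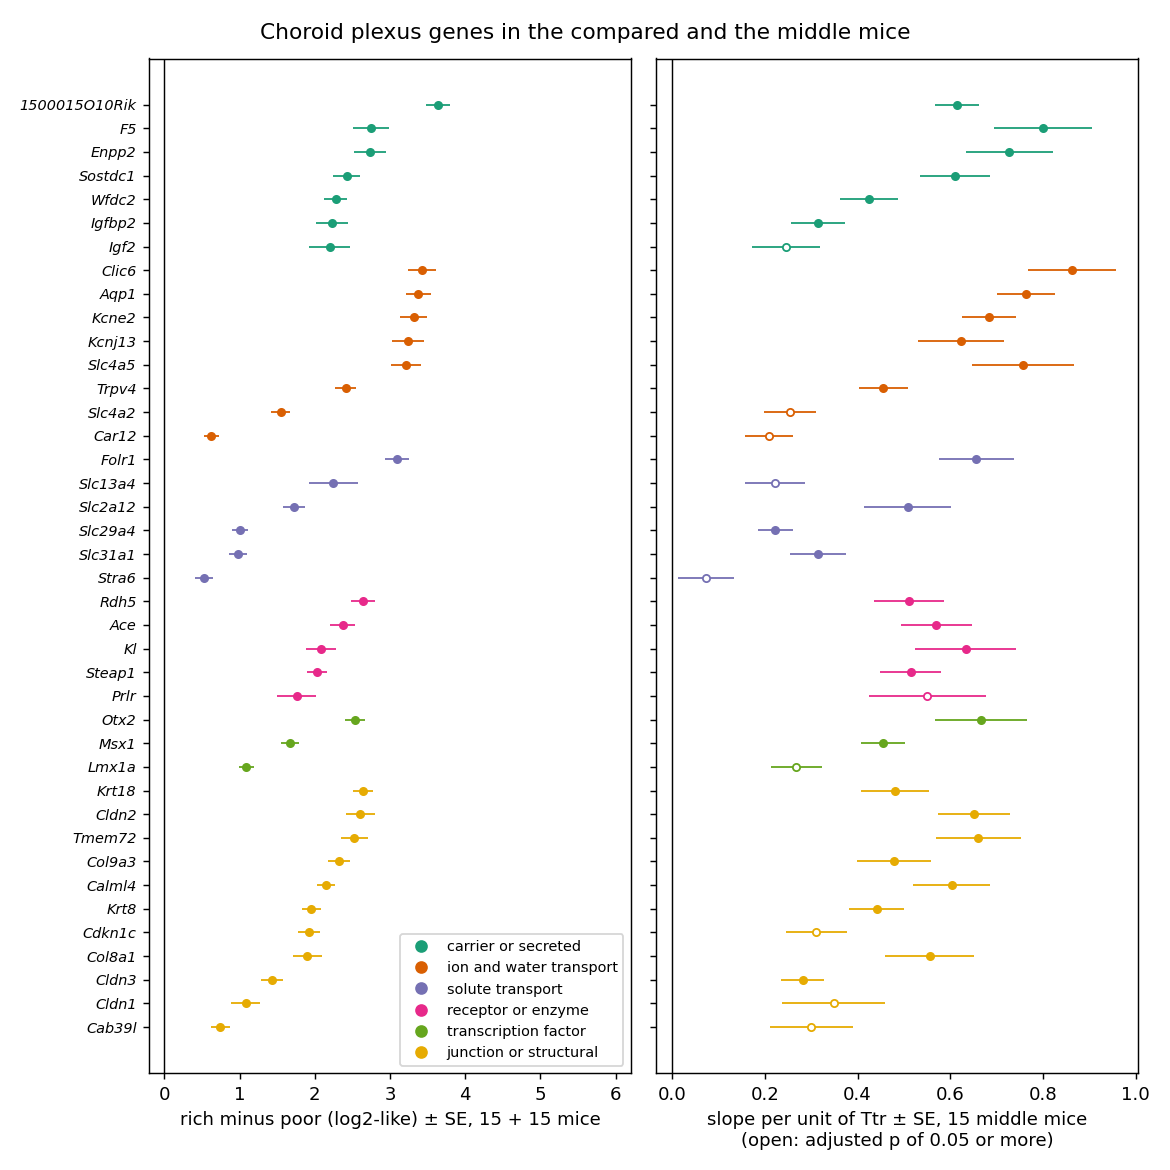
The 40 choroid plexus genes by role. The left panel gives the difference of rich and poor mice (log2-like, bars are SE, 15 and 15 mice) and the right panel the slope per unit of Ttr in the 15 middle mice (bars are SE, open points did not pass the threshold). All differences lie above 0, from 0.53 (Stra6) to 3.64 (1500015O10Rik), and 30 of the 40 slopes passed.

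Each batch alone gave the same direction for all 40 genes. In batch 0 (6 rich and 7 poor mice) 39 of the 40 passed as higher, and 636 genes (4.0%) did so in all. In batch 1 (9 rich and 8 poor mice) 34 of the 40 passed, and 157 genes (0.988%) in all. Stra6 missed the threshold in batch 0 (0.19 ± 0.161), and Car12, Slc13a4, Stra6, Prlr, Cldn1 and Cab39l missed it in batch 1. The batches share no mice. They had 139 higher genes in common, which is 21.9% of those of batch 0 and 88.5% of those of batch 1, and 34 of the 139 were on the list. Each diet alone also gave all 40 genes a positive difference, of which 30 passed in STD mice, where 61 genes (0.384%) did in all, and 38 in TWD mice, where 486 (3.06%) did. Without the 9 AwTw mice, a comparison added after the data had been seen, 39 of 40 passed with a median of 2.19, as did 446 genes (2.81%) in all, and Stra6 did not (0.35 ± 0.105).

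Outside the list, 41 genes were higher in rich mice and also rose with Ttr in the middle mice. In all, 71 of the 72 genes that rose in the middle mice were higher in the rich mice, which is 98.6% of the former and 7.31% of the latter. The exception was Greb1l, with a rich minus poor difference of -0.22. Of the 41, 2 identifiers without a symbol copied the values of Vamp8 and Rd3, and 33 passed in both batches. The genes named from this set were chosen after their values had been seen, apart from Mfrp and Slc16a8, which were among the 10 largest differences.

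Mfrp, a membrane frizzled-related protein known from the pigment epithelium of the eye, was second only to 1500015O10Rik among all genes. It stood at 7.87, 9.11 and 10.51 in rich and at 4.99, 5.39 and 6.28 in poor mice (3.53 ± 0.255, limma adjusted p = 2.693e-11), without overlap, and its slope in the middle mice was 0.92. Slc16a8, the lactate transporter of the same eye epithelium, stood at 6.81, 7.32 and 8.60 in rich and at 4.21, 4.51 and 5.33 in poor mice (2.84 ± 0.149, limma adjusted p = 2.664e-14). Abca4, a retinoid transporter of photoreceptors, differed by 2.70 ± 0.133, and Rd3, also known from photoreceptors, by 0.91 ± 0.0832.

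Secreted and matrix proteins in this set included Lbp, the lipopolysaccharide-binding protein (2.30 ± 0.183), the collagen Col8a2 (2.09 ± 0.146), the semaphorin Sema3b (2.02 ± 0.177), the Wnt antagonist Sfrp5 (1.52 ± 0.120) and the vitamin B12 carrier Tcn2 (1.10 ± 0.124). Epithelial genes included the cadherin Cdh3 (1.87 ± 0.185), the protease inhibitor Spint2 (1.43 ± 0.128) and the junction protein Cgnl1 (1.15 ± 0.171). Transporters and enzymes included the zinc transporter Slc39a4 (1.63 ± 0.135), the carbonic anhydrase Car14 (1.28 ± 0.108) and the thyroid hormone transporter Slco1c1 (0.60 ± 0.109). Drc7, a part of the ciliary dynein regulatory complex, differed by 2.10 ± 0.172. The long non-coding RNA 2900040C04Rik (2.44 ± 0.127) and Prr32 (2.33 ± 0.148) were also in the set. TAATCC was in 5 of 35 promoter windows of 29 of the 41 genes, beside 6.25% of all windows. Whether these shares differ was not tested.

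**Figure D4:**
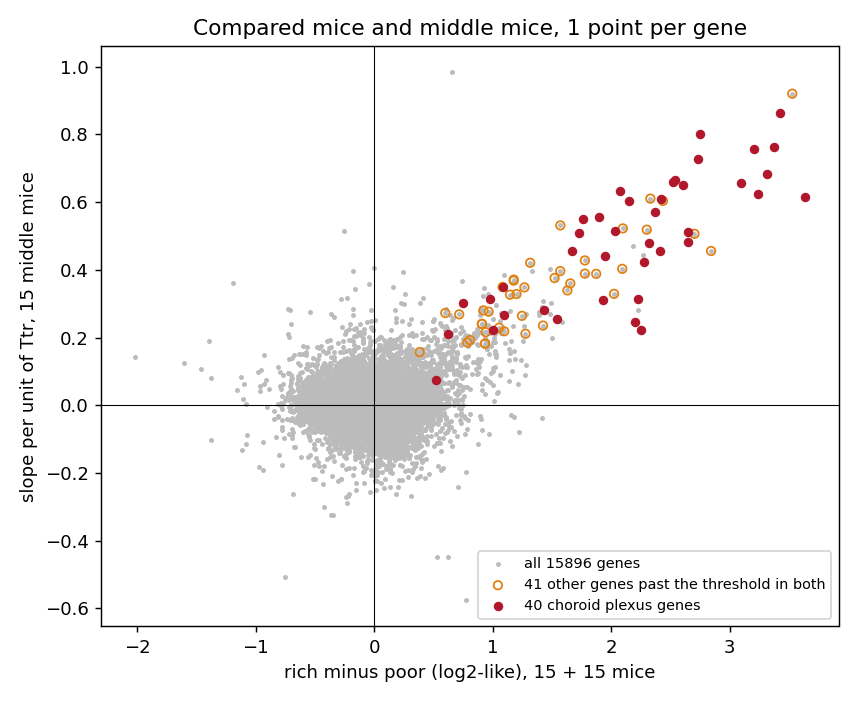
Difference of rich and poor mice (horizontal axis, log2-like) against the slope per unit of Ttr in the 15 middle mice (vertical axis), 1 point per gene, for 15896 genes. The 40 choroid plexus genes are filled red and the 41 other genes past the threshold in both are open orange. No gene that passed the threshold as lower in rich mice also passed as falling in the middle mice.

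The genes whose values over the 45 mice were most like those of Ttr, with the covariates taken out of both, were Krt18 (Pearson r 0.96, Spearman rho 0.95), Kcne2 (0.96 and 0.94), Folr1 (0.96 and 0.95), Clic6 (0.96 and 0.95), 1500015O10Rik, Slc16a8, Krt8, Abca4, Otx2 and 2900040C04Rik. The points share the split of Ttr into high and low mice, so r was also taken on each side of the widest gap. For Krt18 it was 0.93 in the 28 mice above the gap and 0.79 in the 17 below, and for 1500015O10Rik 0.94 and 0.69. Of the 50 genes most like Ttr, 27 were on the choroid plexus list. The list itself had a median r of 0.90 and a lowest of 0.59. The most negative gene was Syn2, which encodes the synaptic vesicle protein synapsin 2, with r of -0.79. Its median was 13.15 in rich and 13.33 in poor mice.

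The first principal component of the genes outside the choroid plexus list held 44.8% of their variance and ran from -36.17 to 71.41 (median 14.90) in rich and from -57.84 to 40.14 (median -6.40) in poor mice. It was a covariate in an alternative fit.

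Besides the choroid plexus list, genes of motile cilia were higher in rich mice. Such cilia beat on ependymal cells, which line the ventricles. The list of 16 genes had 12 that passed as higher and 0 as lower, with a median of 0.80. Of all genes 971 (6.11%) passed as higher. Cfap126 (1.18 ± 0.123), Rsph1 (1.15 ± 0.110), the ciliary master factor Foxj1 (1.03 ± 0.157) and Dynlrb2 (0.98 ± 0.112) differed most. Rsph1 stood at 7.59, 8.17 and 9.02 in rich and at 6.80, 7.09 and 7.73 in poor mice, and the groups overlapped. In batch 0 alone 10 passed, against 4.0% of all genes, and in batch 1 alone 4, against 0.988%. In the middle mice Cfap126 was the 1 that passed, against 0.453% of all genes. In STD mice alone 0 passed in limma, against 0.384% of all genes. At an unadjusted p below 0.05, 8 were higher there, where 647 of all 15896 genes were. In TWD mice alone 10 passed, against 3.06% of all genes. The mean of the list ran from 6.56 to 7.15 in rich and from 6.01 to 6.76 in poor mice. Its part in the differences of the choroid plexus list was not tested.

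Of 13 genes of meninges and fibroblasts, 4 passed as higher, against 6.11% of all genes, and the median was 0.70. Ptgds, the prostaglandin D synthase that meninges and choroid plexus both make, stood at 12.09, 14.53 and 15.55 in rich and at 11.36, 12.76 and 14.87 in poor mice (1.41 ± 0.384, limma adjusted p = 0.01682). The collagens Col1a2 (0.73 ± 0.241) and Col1a1 (0.70 ± 0.224) and Islr (0.62 ± 0.181) were the others. In all 4 the groups overlapped. All 4 missed the threshold with the principal component as a covariate (Ptgds 1.02, limma adjusted p = 0.0637), whereas Lum and Ogn passed. In the middle mice 0 of the 13 passed in limma (0 at an unadjusted p below 0.05), and the slope of Ptgds was -0.04. In batch 0 alone 1 of the 13 passed, against 4.0% of all genes. In batch 1 alone 0 did, against 0.988%. At an unadjusted p below 0.05, 3 were higher there, where 755 of all 15896 genes were. The mean of the list ran from 7.41 to 9.33 in rich and from 7.18 to 8.81 in poor mice. Its part in the differences of Igf2, Igfbp2 and Slc13a4, which meninges also express, was not tested.

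Lists of vessel cells, blood and border macrophages had at most 1 gene each that passed as higher, where 971 genes (6.11%) of all did. In lists this short, 1 gene is already a larger share than that of all genes. Mural cells had 1 of 10 genes higher (Vtn, 0.59 ± 0.175), endothelium 1 of 12 (Plvap, 0.35 ± 0.110) and border macrophages 1 of 5 (Cbr2, 0.51 ± 0.162). All 3 missed the threshold with the principal component in the fit, at 0.36, 0.15 and 0.33. Of 4 blood genes 0 passed in limma, with 0 at an unadjusted p below 0.05 as well, and Hba-a1 differed by 0.41 ± 0.353 and Hba-a2 by 0.26 ± 0.338. These 2 globin genes are near-identical copies, so their separate values are uncertain.

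Genes of neurons and of other glia had medians between -0.21 and 0.23. Of the synapse list of 16 genes, 6 passed as lower and 0 as higher, with a median of -0.21, where 987 genes (6.21%) of all were lower. Of the 16, 11 passed as lower with the principal component, where 1356 of all 15896 genes did. In batch 1 alone 0 passed in limma (3 at an unadjusted p below 0.05), and in STD mice alone 0 (6 at an unadjusted p below 0.05). Of all genes, 454 and 491 were lower at that unadjusted p. Homer1, a scaffold of the postsynaptic density, stood at 7.91, 9.06 and 9.69 in rich and at 8.66, 9.55 and 9.87 in poor mice (-0.54 ± 0.146, limma adjusted p = 0.01533), with overlap. The vesicle calcium sensor Syt1 differed by -0.43 ± 0.114, the kinase Camk2a by -0.31 ± 0.0890 and synapsin Syn1 by -0.27 ± 0.0566. Among 7 dentate granule cell genes Prox1 was lower (-0.48 ± 0.139). With the principal component Homer1 (-0.40, limma adjusted p = 0.0534) and Prox1 (-0.27, limma adjusted p = 0.09582) missed the threshold. The mean of a list of pyramidal cell genes ran from 9.09 to 9.41 in rich and from 9.30 to 9.57 in poor mice. Of 9 interneuron genes 0 passed in limma, with 3 lower at an unadjusted p below 0.05, Gad1 (-0.40 ± 0.144) and Lhx6 (-0.17 ± 0.0683) being the nearest. With the principal component 2 of them passed as lower, Lhx6 (-0.23) and Sst (-0.16). Of 10 pyramidal cell genes 4 passed as lower with it and 1 without it.

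Microglia had 2 of 15 genes lower, the homeostatic receptors P2ry12 (-0.56 ± 0.186) and Cx3cr1 (-0.31 ± 0.0691), against the 6.21% of all genes that were lower. P2ry12 missed the threshold with the principal component (-0.26, limma adjusted p = 0.2174). In that fit Cx3cr1 (-0.28), Csf1r (-0.23) and Siglech (-0.22) passed as lower. The mean of the list had a median of 9.23 in rich and 8.43 in poor mice before adjustment, where 8 and 4 mice carried A+, and the median difference of its genes was -0.05 after it. The part of A genotype in the former was not tested. Astrocytes had Slc1a3 lower (-0.36 ± 0.114) of 10 genes. Oligodendrocytes had Mobp higher (0.29 ± 0.0897) of 11, against the 6.11% of all genes that were higher. Slc1a3 missed the threshold with the principal component (-0.33, limma adjusted p = 0.06272). Of 11 immediate early genes 0 passed in limma and 0 at an unadjusted p below 0.05, with Fosb at -0.25 ± 0.128 and Npas4 at 0.20 ± 0.118. With the principal component 3 passed as lower, Fosb (-0.43), Egr4 (-0.32) and Junb (-0.24), where 1356 of all 15896 genes did.

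Brain regions next to the hippocampus were checked in the same way. Of 8 genes of thalamus and habenula, Zic1 was higher (1.27 ± 0.221, limma adjusted p = 0.0002363), with 7.16, 8.25 and 9.80 in rich and 6.40, 7.08 and 7.78 in poor mice. Of 9 striatal genes, Ppp1r1b, which encodes the phosphoprotein DARPP-32, was higher (1.05 ± 0.127, limma adjusted p = 6.976e-07) without overlap, 10.57, 10.91 and 11.63 against 9.45, 10.08 and 10.54. It also rose in the middle mice (slope 0.23). The other genes of both lists did not pass, and the medians of the lists were 0.15 and 0.08. Of all genes 6.11% passed as higher.

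Genes of oxidative phosphorylation and of the ribosome had small differences, 76 and 77 of 78 of them above 0. Of the 78 oxidative phosphorylation genes 17 passed as higher and 0 as lower, with a median of 0.30. Of the 78 ribosomal protein genes 3 passed (Rpl24, Rpl36 and Rps27l), with a median of 0.32. The share of ribosomal protein genes that passed was below the 6.11% of all genes. The counts of both lists were 23 and 23 in batch 0, where 636 genes (4.0%) of all passed. They were 2 and 0 in batch 1, where 157 genes (0.988%) of all did. In batch 1, 3 oxidative phosphorylation and 1 ribosomal protein genes were higher at an unadjusted p below 0.05 in limma. Of all 15896 genes 755 were. The tissue-restricted subunits Cox8b (2.27 ± 0.123), Cox6b2 (1.14 ± 0.121) and Cox7a1 (0.67 ± 0.110) differed most. Cox8b stood at 6.62, 7.31 and 8.21 in rich and at 4.81, 5.15 and 5.52 in poor mice without overlap, and Ndufa1 was the next of the genes that passed (0.49 ± 0.116). After quantile normalization 28 and 32 passed, where 919 of all 15896 genes did. With the 8 groups of the study as covariates 39 and 51 passed, where 1451 of all did. With the principal component as a covariate the medians were 0.10 and 0.09. Then 5 and 1 genes passed, where 846 of all did, whereas Cox8b differed by 2.14. The part of the component in these lists was otherwise not tested.

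**Figure D5:**
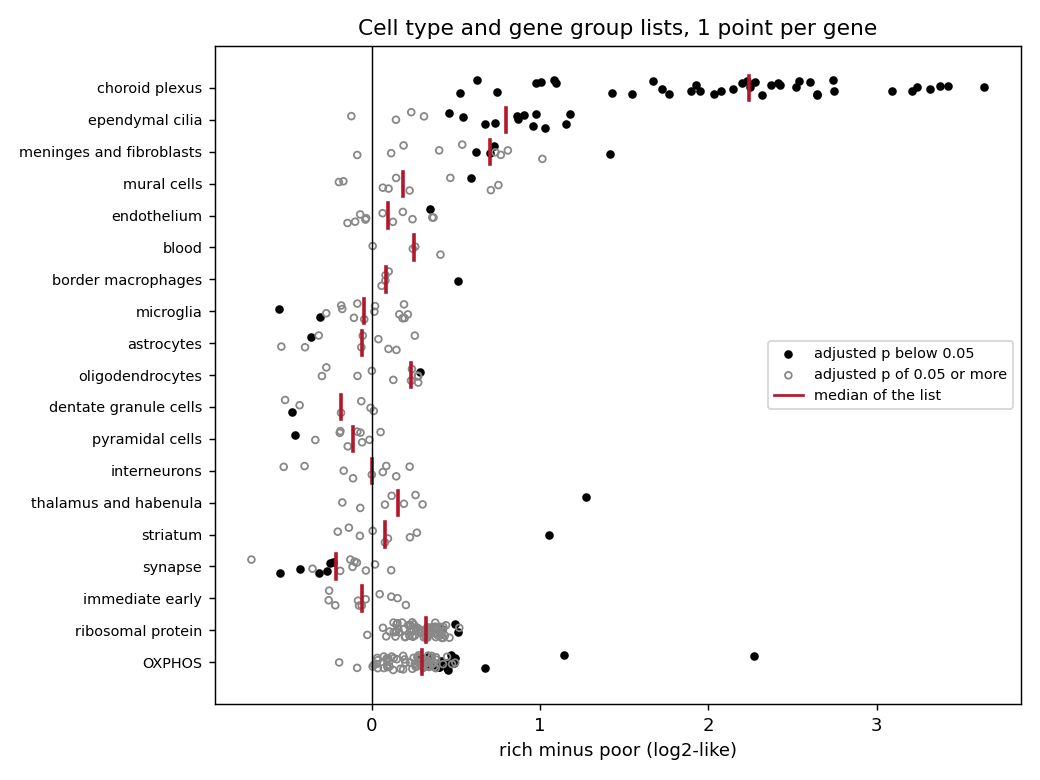
Difference of rich and poor mice (horizontal axis, log2-like) of each gene in 19 lists. Filled points passed the threshold, open points did not, and the red line is the median of the list. The choroid plexus list has a median of 2.24, motile cilia 0.80, meninges and fibroblasts 0.70 and the synapse list -0.21.

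The differences of the 987 lower genes were small. Their median was -0.34, and 8 fell by more than 1, whereas the 971 higher genes had a median of 0.49, 125 of them above 1 and 37 above 2. Of those 37, 25 were on the choroid plexus list. At an unadjusted p below 0.05 there were 4787 genes in both directions. In the middle mice 0 of the 987 lower genes passed as falling in limma (232 genes of the table fell at an unadjusted p below 0.05), and 606 of the 987 had a negative slope. The 2 genes that did pass as falling in the middle mice were Abcc5 and Pou2f1. The batches had 0 lower genes in common, since batch 1 alone had 0 in limma (454 at an unadjusted p below 0.05).

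Of the 10 largest falls, 4 were of processed pseudogenes, whose reads cannot be told with certainty from those of the parent gene. The processed pseudogene Eif4a-ps4 stood at 3.56, 8.89 and 10.80 in rich and at 5.12, 9.39 and 10.71 in poor mice (-2.02 ± 0.675, limma adjusted p = 0.04757). Its groups overlapped over nearly their whole range. Pakap (-1.46 ± 0.399), Gm20425 (-1.40 ± 0.448), Gm28539 (-1.38 ± 0.364), Gm9762 (-1.10 ± 0.365), Gm20431 (-1.09 ± 0.366), Tcea1-ps1 (-0.97 ± 0.321) and Ppp1r2-ps4 (-0.96 ± 0.278) followed, of which Gm9762, Tcea1-ps1 and Ppp1r2-ps4 are processed pseudogenes too. Gabrb2, a GABA receptor subunit, stood at 6.15, 7.79 and 9.45 in rich and at 6.87, 8.91 and 10.09 in poor mice (-1.16 ± 0.341), and the zinc finger gene Zfp781 differed by -1.11 ± 0.352. All 10 overlapped. The 1 gene of the table with every rich mouse below every poor mouse was Dpp6, a subunit of neuronal potassium channels, chosen after its values had been seen. It stood at 11.95, 12.44 and 12.49 in rich and at 12.52, 12.60 and 12.91 in poor mice (-0.27 ± 0.0585, limma adjusted p = 0.003476).

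Differences between rich and poor mice were also compared across the conditions of the study by interaction terms. Of the 15896 genes 0 passed in limma for A genotype (278 at an unadjusted p below 0.05), tau genotype (264), diet (230) or batch (730). Within the choroid plexus list the lowest adjusted p of these terms was 0.9975. This does not show that the differences were equal.

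The genotypes and diets of the study were then compared over all 45 mice without and with the Ttr value of each mouse in the fit. Without Ttr, all 40 choroid plexus genes were higher in A+ than in Aw mice, by 0.17 to 1.12 with a median of 0.57, but 0 passed in limma (lowest adjusted p 0.1486, 22 at an unadjusted p below 0.05). With Ttr their median was -0.12 and 36 were negative. In T+ against Tw mice the median was 0.66 without Ttr and 0.14 with Ttr. Without Ttr, 31 genes were at an unadjusted p below 0.05 and 0 past the threshold in limma. At that unadjusted p, 1230 of all 15896 genes were higher in A+ and 483 in T+ mice.

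Over all genes, 601 (3.78%) differed between A+ and Aw mice without Ttr, 493 higher and 108 lower. With Ttr there were 397 (2.50%), 362 higher and 35 lower. The microglia list had 12 of 15 genes higher in A+ mice in both fits, with a median of 1.12 without and 1.07 with Ttr. For tau genotype 2 genes (0.0126%) passed without Ttr, Arsi and an identifier without a symbol, and 5 (0.0315%) with it, when Cdh2, Camk4 and Pcdhgb8 were added.

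Diet was tested in the same way, and 4853 genes (30.5%) differed between TWD and STD without and 5884 (37.0%) with Ttr. With the principal component in the fit 0 passed in limma in either case (1120 and 1401 at an unadjusted p below 0.05). The choroid plexus list had a median of -0.25 without Ttr. Cldn1 (-0.52 ± 0.196) and Cab39l (-0.37 ± 0.144) passed as lower in TWD, where 2229 of all 15896 genes did. With Ttr, 8 of the 40 passed as lower, Enpp2, F5, Car12, Slc31a1, Slc2a12, Kl, Cldn1 and Cab39l, and 2 as higher, Igfbp2 (0.36 ± 0.128) and Cdkn1c (0.32 ± 0.108). F5 had the largest of these, -0.49 ± 0.173. Over all genes 2838 passed as lower and 3046 as higher with Ttr, so such calls are not particular to the list. With the principal component in the fit, 0 of the 40 passed in limma and 0 did at an unadjusted p below 0.05.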

How the data were processed

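RNA of 45 hippocampi (polyA, stranded single-end reads) was processed by the authors. They trimmed reads with Trimmomatic 0.38, removed ribosomal and mitochondrial reads with Bowtie2 2.2.3, quantified transcripts with kallisto 0.44.0 (mm10), collapsed them to genes and dropped genes with few counts. The authors then made a variance-stabilized table with DESeq2 1.22.2 and removed batch with limma 3.38.3. What was deposited is thus log2-like and holds no counts, so depth is unknown and precision rests on the spread between mice. In all 15897 genes the means of batch 0 and batch 1 were equal within 1e-06.

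Symbols came from GENCODE (15695 genes), and 157 genes copy an earlier gene. Mice were ranked by Ttr, and the 15 highest were compared with the 15 lowest in limma 3.58.1 (R 4.3.3, empirical Bayes with a mean trend, two-sided). The fit was tested on simulated data in which each gene varied independently. Such data do not show how variation shared between genes moves the counts. Ttr was left out, so 15896 genes were tested. Slopes used the Ttr value in place of the group. Named were the choroid plexus list, the 10 largest differences in each direction, up to 4 passing genes of each other list (or the 2 with the smallest p), and genes chosen later and marked so. The mice, genes and lists were chosen with earlier results of these data known. Alternatives were batch, diet and group settings, other group sizes, normalization, filters, a principal component and each mouse left out. A few items are not reported here.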

Additional observations from a re-analysis of the deposited data

Results flagged for a closer look

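In A+T+/TWD the Ttr value of replicate 4 was 10.89, far below the other 5 mice of its group, which lay between 15.73 and 17.08. It was the 1 mouse whose gap to the others passed the critical value of Dixon's test at 95%, over the lowest and the highest mouse of 8 groups, and chance passes about 1 group in 20. This mouse was the 1 A+T+ mouse among the poor mice. Without it 638 genes were higher and 419 lower in rich mice, and all 40 choroid plexus genes passed.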

How the results depend on the processing

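The choroid plexus list kept 40 of 40 genes as higher and 0 as lower with each of the 30 mice left out in turn, and 40 under 10 highest against 10 lowest mice, quantile normalization, the principal component, the 8 groups, no batch and the slope over 45 mice. It fell to 1 and 0 for the slopes within the 15 rich and the 15 poor mice, which were added after the data had been seen. The counts over all genes moved far more. The 971 higher genes became 636 in batch 0, 157 in batch 1, 61 in STD, 486 in TWD, 506 for 10 against 10 mice, 72 for the middle mice, 1 and 0 for the slopes within rich and poor mice, 634 for genes above the 25th percentile and 446 without AwTw mice (also added later). The 987 lower genes became 0 in batch 1, 2 in STD (Gm10146 and Gm8226), 514 in TWD, 127 for 10 against 10 mice, 414 for the slope over 45 mice, 2 for the middle mice, 0 and 0 within rich and poor mice, 584 after quantile normalization, 1524 with the 8 groups and 104 without AwTw mice. The share of lower genes among the calls thus depends on the setting. With single mice left out, higher genes ranged from 593 to 1669 and lower genes from 419 to 1869. Higher genes moved over 1.5 times without AwTw/TWD replicate 3 (593), A+T+/TWD replicate 4 (638) and A+Tw/STD replicate 2 (1669). Lower genes did so without the same 3 mice (422, 419 and 1869), A+Tw/TWD replicates 1 (590) and 3 (487), AwT+/TWD replicates 3 (579), 4 (1522) and 5 (622) and AwTw/STD replicate 2 (612). With Ttr in the fit, diet had 5884 genes, and 0 with the principal component added (1401 at an unadjusted p below 0.05). A genotype had 397, and 209 for genes above the 25th percentile, 728 with the component and 601 without Ttr, and tau genotype 5, 3 and 2. In the middle mice 7 of the 10 largest falls turned positive, Eif4a-ps4 (0.14), Pakap (0.11), Gm20425 (0.19), Gabrb2 (0.0437), Gm9762 (0.0612), Tcea1-ps1 (0.0563) and Ppp1r2-ps4 (0.10), and Gabrb2 did so in STD mice (0.26). The causes were not tested. No paired analysis was possible because the labels give each mouse its own name and no number shared between groups.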
